A study of Mus musculus with 79 samples.

Results

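The 29 genes described here encode enzymes and regulators of cholesterol and fatty acid synthesis. They were taken by their symbols from the 3 tables of estimated counts, one each for macrophages, Schwann cells and distal nerve stumps, and all 29 were found among 23361 genes. The set was made up of 7 mevalonate-step genes (Hmgcs1, Mvk, Pmvk, Mvd, Idi1, Fdps and Ggps1), 9 genes of the squalene and sterol ring steps (Fdft1, Sqle, Lss, Cyp51, Tm7sf2, Nsdhl, Hsd17b7, Ebp and Dhcr7), 3 regulators (Srebf1, Srebf2 and Insig1), 1 sterol carrier (Stard4) and 9 fatty acid genes (Acly, Acaca, Fasn, Elovl1, Elovl6, Scd1, Scd2, Fads1 and Fads2). The question was whether the sterol and the fatty acid steps differed with delayed repair, with the day after repair and between the sorted cell types.

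Cells make cholesterol from acetyl-CoA through mevalonate and squalene, and make fatty acids from the malonyl-CoA that acetyl-CoA carboxylase supplies. The SREBP transcription factors, encoded by Srebf1 and Srebf2, switch on both pathways when membrane sterol is low, and INSIG proteins hold them back when it is high. Schwann cells need large amounts of both lipids to build myelin, whereas macrophages in an injured nerve take up lipid from myelin debris and export part of it.

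All animals were S100β-eGFP mice, in which the human S100β promoter drives GFP, and the groups held both sexes. A freshly cut common peroneal nerve was joined to the tibial stump through a silicone conduit. Immediate repair was done at the time of tibial transection in mice whose skin and muscle had been opened, the sciatic nerve exposed and the wound closed 8 weeks earlier, and delayed repair was done 8 weeks after tibial transection. Macrophages (F4/80+, CD14+, CD16/32+, CD11b+) and Schwann cells (GFP+ and negative for the other sorted markers) came from the regenerating bridge of single animals on day 5 or day 14. Macrophage libraries numbered 9 for delayed and 8 for immediate repair on day 5, and 7 and 8 on day 14. Schwann cell libraries numbered 9 and 7 on day 5, and 7 and 8 on day 14. The distal stump was collected on day 5 only, from 9 delayed and 7 immediate repairs. Of 32 animals, 31 gave both sorted libraries.

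Total counts per library ran from 14928748 to 28499405 in macrophages, from 11614940 to 30796825 in Schwann cells and from 3898778 to 9212710 in stumps. Levels below are scaled counts (CPM, relative to the library total) after TMM scaling, a scaling that evens out library composition. The libraries sorted as macrophages carried Emr1, the gene of F4/80, at 825 to 1764 CPM, while Sox10, a defining Schwann cell gene, was at 0 to 1.83 CPM. The libraries sorted as Schwann cells carried Sox10 at group medians of 10.2 (delayed, day 5), 57.6 (immediate, day 5), 102 (delayed, day 14) and 105 CPM (immediate, day 14), and S100b at group medians of only 0.475 to 14.7 CPM. In the same libraries Ccr7, a gene of migrating dendritic cells, had group medians of 3879 to 7464 CPM, against 6.05 to 30.5 CPM in macrophage libraries. The name Schwann cell therefore stands below for a sorting gate whose RNA held dendritic cell transcripts at a far higher level than Schwann cell transcripts. Macrophage marker genes summed to 337 to 12388 CPM in these libraries, and 5 of them stood apart with macrophage or neutrophil genes. In the stump, 2 libraries stood apart as well, delayed replicate 5 with skeletal muscle genes (2469 CPM) and delayed replicate 6 with erythroid genes (1658 CPM).

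Promoter sequences were available for 22 of the 29 genes in RefSeq (GRCm38.p6), as 28 windows of 250 bases before a transcription start. The letters CCAAT, the core of the NF-Y site that accompanies SREBP sites in many sterol genes, were found on either strand in windows of 18 of the 22 genes, whereas 37.5% of all genes in the RefSeq table held them. The groups differed in this count: all 6 mevalonate genes, all 7 sterol ring genes and all 3 regulators held CCAAT, as did 2 of 6 fatty acid genes. No window was available for Fdps, Fdft1, Sqle, Stard4, Scd1, Scd2 and Fads1, so the fatty acid count lacks most of the desaturase genes. The only Acaca window (chr11:84195188-84195437) lies inside the gene (84129672-84401651). The sterol regulatory element spelled TCACNCCAC was found in Hmgcs1 alone (1.05% of all 32851 windows held it), and the E-box CACGTG in Dhcr7, Hsd17b7 and Insig1 (6.02% of all windows). In 1 window a pair of CCAAT matches on opposite strands overlapped and no other matches did. A match is a description of the sequence only. The 6 windows shown next belong to genes on which the comparisons below turn. Idi1, Cyp51, Mvd and Hmgcs1 had different changes from day 5 to day 14 in the sorted cell types, and Hsd17b7 and Fads2 were lower in delayed stumps. They lie at chr13:8885356-8885605 (Idi1, plus strand), chr5:4104698-4104947 (Cyp51, minus strand), chr8:122443423-122443672 (Mvd, minus strand), chr13:119690101-119690350 (Hmgcs1, plus strand), chr1:169969206-169969455 (Hsd17b7, minus strand) and chr19:10101504-10101753 (Fads2, minus strand). Capitals mark CCAAT or its complement ATTGG, the sterol regulatory element and the E-box.
Idi1: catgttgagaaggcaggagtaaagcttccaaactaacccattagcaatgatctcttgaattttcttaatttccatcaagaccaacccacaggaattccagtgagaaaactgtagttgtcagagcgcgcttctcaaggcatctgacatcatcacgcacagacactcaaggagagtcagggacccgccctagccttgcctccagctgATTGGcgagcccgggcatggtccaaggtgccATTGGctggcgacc
Cyp51: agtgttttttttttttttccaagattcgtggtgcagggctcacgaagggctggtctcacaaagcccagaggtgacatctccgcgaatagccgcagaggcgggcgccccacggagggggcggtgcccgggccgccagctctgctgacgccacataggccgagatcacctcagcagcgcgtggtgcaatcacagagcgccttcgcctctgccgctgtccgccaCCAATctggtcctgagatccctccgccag
Mvd: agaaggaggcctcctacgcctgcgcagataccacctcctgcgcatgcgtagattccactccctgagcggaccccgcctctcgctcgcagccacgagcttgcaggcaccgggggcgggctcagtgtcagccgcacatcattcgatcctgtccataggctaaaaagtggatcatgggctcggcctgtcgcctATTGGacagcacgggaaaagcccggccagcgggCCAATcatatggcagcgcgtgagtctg
Hmgcs1: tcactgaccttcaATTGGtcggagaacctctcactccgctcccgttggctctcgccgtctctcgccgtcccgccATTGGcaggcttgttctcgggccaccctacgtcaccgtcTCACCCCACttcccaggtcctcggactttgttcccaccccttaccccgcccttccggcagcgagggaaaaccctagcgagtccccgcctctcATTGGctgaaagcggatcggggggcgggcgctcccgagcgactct
Hsd17b7: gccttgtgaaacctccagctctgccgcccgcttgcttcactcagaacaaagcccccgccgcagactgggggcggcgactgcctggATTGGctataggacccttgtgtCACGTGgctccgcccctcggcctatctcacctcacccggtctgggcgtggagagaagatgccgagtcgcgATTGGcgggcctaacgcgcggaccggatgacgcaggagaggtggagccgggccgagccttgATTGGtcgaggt
Fads2: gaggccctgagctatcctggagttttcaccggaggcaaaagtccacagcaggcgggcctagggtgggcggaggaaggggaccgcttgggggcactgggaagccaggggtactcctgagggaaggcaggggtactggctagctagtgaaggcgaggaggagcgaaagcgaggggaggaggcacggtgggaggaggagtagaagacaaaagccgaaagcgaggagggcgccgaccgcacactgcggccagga
Idi1, Mvd and Hmgcs1 each held CCAAT more than once, Cyp51 held it once near its start, and Fads2 held none of the 3 motifs.

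In the distal stump on day 5, the desaturase genes Scd2, Fads1 and Fads2 and 2 of 8 tested genes of the squalene and ring steps were called lower after delayed repair, the desaturase gene Scd1 was not called, and 0 of 7 mevalonate genes were called. The groups of genes were not tested against each other. Of the 28 genes tested, 6 passed an adjusted p of 0.05 in edgeR's quasi-likelihood test, 1 of them higher and 5 lower, which is 21.4% of the genes, beside 26.3% of all 12229 genes tested. The count was 11 without delayed replicate 1 and also 11 with limma-voom, the mevalonate gene Hmgcs1 among them in both. Tm7sf2 was too low to test. The median log2 fold change, delayed over immediate, was −0.14 over the 28 genes and 0.02 over all genes.

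Scd2 (chr19:44293674-44306864 of GRCm38) showed the largest difference. It encodes a stearoyl-CoA desaturase that makes monounsaturated fatty acids and is the main form in nervous tissue. Its level was 236, 364 and 532 CPM (lowest, median and highest) in the 9 delayed stumps and 555, 1122 and 1425 CPM in the 7 immediate stumps, so that every delayed stump lay below every immediate one. The log2 fold change was −1.50 ± 0.21 (SE), a 2.83-fold lower level (adjusted p = 9.77e-05). Scd1, its paralog with similar sequence, ran from 92.8 to 1145 CPM in delayed and from 162 to 701 CPM in immediate stumps, and its log2 fold change of 0.16 ± 0.46 was not called. The highest Scd1 level was in delayed replicate 5, the library with skeletal muscle genes, in which adipocyte genes summed to 1317 CPM. Reads shared between these paralogs may have been split by the authors' counting, and both values carry that uncertainty. Expressed per kilobase of exon, Scd2 was the highest of the 29 genes in immediate stumps (183 ± 65.1 CPM per kb, SD, n = 7), followed by Scd1 (68.9 ± 35.9). In delayed stumps Scd1 (76.6 ± 67.5, n = 9) and Scd2 (64.7 ± 17.3) did not differ beyond their spread.

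Both fatty acyl desaturases of the polyunsaturated pathway were lower too. Fads2 (chr19:10062765-10101746), which catalyses the first desaturation, was at 6.25, 9.84 and 14.7 CPM in delayed and at 18.4, 20.7 and 37.5 CPM in immediate stumps, again with no overlap (log2 fold change −1.23 ± 0.21, 2.34-fold lower, adjusted p = 4.43e-04). Of all genes tested, 4.68% had groups that did not overlap. Fads1 (chr19:10182888-10196877), which catalyses a later desaturation, was at 60.2, 77.3 and 94.0 CPM in delayed and at 82.7, 96.3 and 115 CPM in immediate stumps. These groups overlapped, all 9 delayed stumps lay below the immediate mean, and the log2 fold change was −0.35 ± 0.10 (adjusted p = 0.0177). Fatty acid genes other than these desaturases were not called. Acly, which makes cytosolic acetyl-CoA, had a log2 fold change of −0.04 ± 0.11, Acaca, the acetyl-CoA carboxylase, one of −0.21 ± 0.11, and Fasn, the fatty acid synthase, one of −0.38 ± 0.20. Elovl6 (−0.49 ± 0.19, adjusted p = 0.0654) and Elovl1 (−0.25 ± 0.10, adjusted p = 0.0625), which lengthen fatty acids, missed the threshold narrowly. In all, 3 of the 9 fatty acid genes were called lower and 8 of 9 had a fold change below 0.

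Among the sterol genes, 2 of the 15 tested were called, both in the squalene and ring steps. Sqle (chr15:59315077-59331192), squalene epoxidase, a rate-limiting enzyme of the late pathway, was at 6.3, 10.8 and 21.1 CPM in delayed and at 14.7, 20.4 and 31.9 CPM in immediate stumps. The groups overlapped, 8 of 9 delayed stumps lay below the immediate mean, and the log2 fold change was −0.84 ± 0.24 (adjusted p = 0.0163). Hsd17b7 (chr1:169949535-169969241), a sterol ketone reductase whose promoter window was shown above, was at 4.34, 5.33 and 7.34 CPM in delayed and at 6.04, 9.17 and 13.5 CPM in immediate stumps (log2 fold change −0.69 ± 0.17, adjusted p = 0.00775). All 9 delayed stumps lay below the immediate mean of this gene. Of the 7 mevalonate genes, 0 passed the adjusted threshold, 1 (Hmgcs1, −0.30 ± 0.14) had an unadjusted p under 0.05, and the 7 fold changes ran from −0.30 to 0.24 with a median of 0.04. The 95% interval of Idi1, the isomerase of the mevalonate pathway, was −0.24 to 0.71. The 3 regulators, with fold changes of −0.09 (Srebf1), 0.18 (Srebf2) and 0.11 (Insig1), were not called either.

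Stard4, which carries cholesterol between membranes inside the cell, was the gene of the set called higher. Its level was 22.7, 42.0 and 48.3 CPM in delayed and 22.4, 26.2 and 34.0 CPM in immediate stumps, and 8 of 9 delayed stumps lay above the immediate mean (log2 fold change 0.52 ± 0.15, 1.43-fold, adjusted p = 0.0147). The lowest delayed stump lay within the immediate range.

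**Figure D1:**
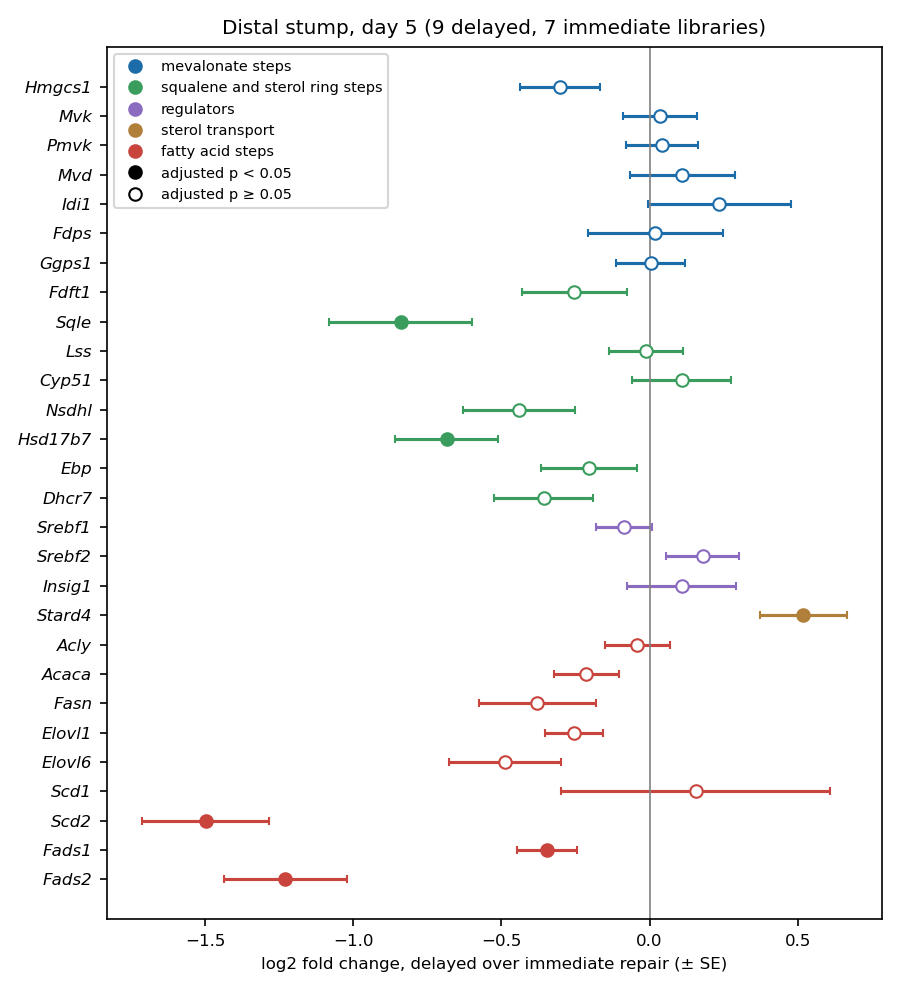
Log2 fold change (x axis, delayed over immediate repair, bars ± SE) of each tested gene (y axis) in the distal stump on day 5, coloured by pathway group, with filled points for an adjusted p under 0.05. Scd2 at −1.50 and Fads2 at −1.23 lie farthest left and Stard4 at 0.52 farthest right, while the mevalonate genes lie between −0.30 and 0.24.

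**Figure D2:**
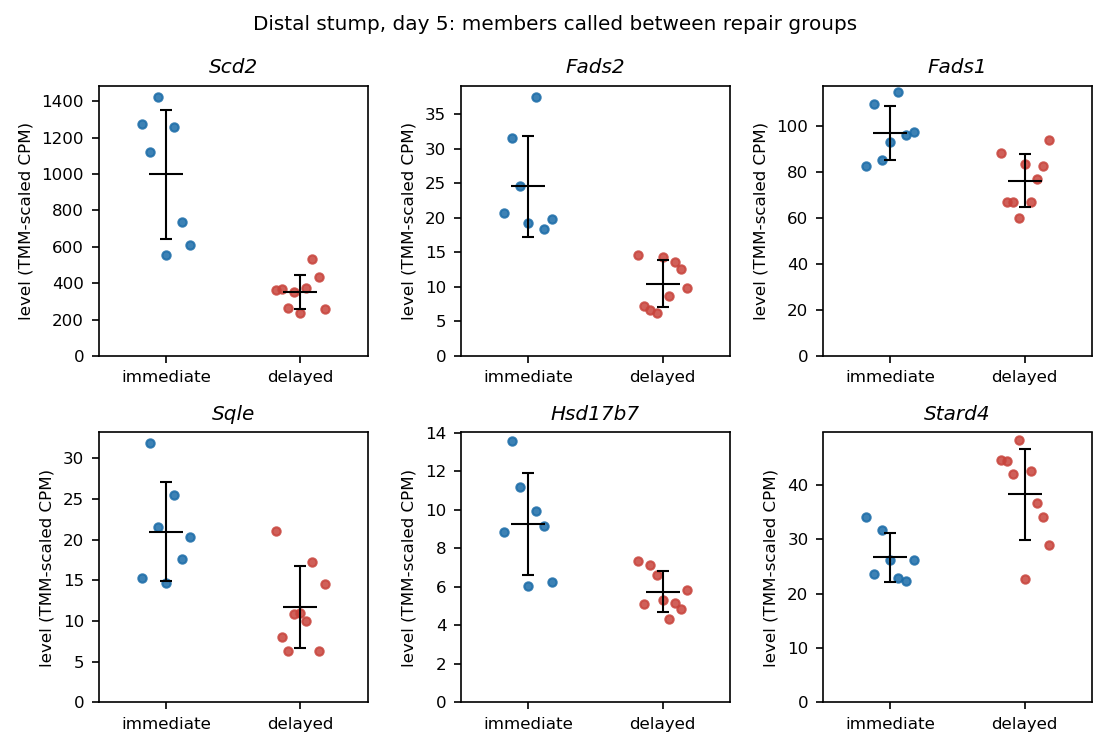
Level in each distal stump library (y axis, TMM-scaled CPM, linear from 0) for the 6 called genes, by repair group (x axis), with 1 point a library. The groups of Scd2 and Fads2 do not overlap, and those of the other 4 genes do.

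Other lipid genes in the stump are given by list, beside the 26.3% of all genes called in this comparison. Of 6 tested myelin lipid enzymes 3 were lower, led by Ugt8a, which makes the myelin lipid galactosylceramide (log2 fold change −3.37 ± 0.36). Of 13 other fatty acid synthesis genes, 2 were higher and 3 lower, among the latter Me1 (−1.08 ± 0.14), a source of NADPH for lipid synthesis, and Elovl7 (−1.51 ± 0.30). Of 10 genes of sterol efflux and storage, Cyp27a1 was higher (0.83 ± 0.18) and Abca1, a cholesterol exporter, lower (−1.10 ± 0.13, adjusted p = 1.09e-05). Sc4mol was the 1 of 5 other sterol synthesis genes called (−0.49 ± 0.17), and 2 of 7 fatty acid oxidation genes were lower. The lists of efflux and storage, other sterol synthesis and oxidation were thus called at about the share of all genes or below it.

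The stump holds every cell of the nerve, and in such bulk samples fewer cells of a type and less RNA per cell cannot be told apart. Schwann cell marker genes summed to 185, 390 and 982 CPM in delayed and to 1500, 2606 and 3465 CPM in immediate stumps, without overlap, and 10 of the 11 tested were called lower. Myelin protein genes were lower in 8 of 10. Macrophage genes summed to 3999, 5530 and 7139 CPM in delayed and to 1702, 3189 and 6658 CPM in immediate stumps, and 2 of 11 were called higher. Of other cell types, 5 of 6 endothelial, 4 of 6 mural and 4 of 11 tested dendritic cell genes were called higher, as was the 1 tested T cell gene (1.27 on the log2 scale). Of fibroblast genes 0 of 8 and of adipocyte genes 0 of 5 were called, although all 5 adipocyte genes had fold changes above 0 (median 0.98), and their part in the results was not tested. Since the Schwann cell sums of the groups did not overlap, the repair group and the Schwann cell content cannot be told apart for the desaturase result. Within the delayed group, the stump with the highest Schwann cell sum (replicate 7) had 532 CPM of Scd2 and that with the lowest (replicate 3) had 262 CPM. Within the immediate group, the stump with the highest sum (replicate 6) had 1260 CPM and that with the lowest (replicate 4) had 555 CPM. The lowest delayed and the highest immediate level of Scd2 were in other stumps. Without the 2 stumps that stood apart, an alternative chosen after the data were seen, 8 genes were called, Acaca and Elovl6 in addition to the 6.

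Sex, compared in the same stumps as female over male with the repair group in the model, gave 0 called of 28 genes in edgeR's test, 4 with an unadjusted p under 0.05 and 0 with DESeq2 (0.0654% of all genes tested were called). Limma-voom called 1, Stard4 (adjusted p = 0.0456). The smallest p-values belonged to Stard4 (log2 fold change −0.37 ± 0.12, adjusted p = 0.26), Fasn (0.47 ± 0.17, adjusted p = 0.28) and Ebp (0.36 ± 0.14, adjusted p = 0.302).

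In sorted cells from the bridge, no gene of the set was called between the repair groups. In macrophages, 0 of 18 genes were called on day 5 (0.0357% of all genes were) and 0 of 20 on day 14 (0%). In Schwann cell libraries, 0 of 24 were called on day 5 (0%) and 0 of 26 on day 14 (0%). DESeq2 also called 0 in each of these comparisons, and the counts with an unadjusted p under 0.05 in edgeR's test were 2, 0, 1 and 0 in the same order. The precision differed between cell types. The 95% interval of the log2 fold change lay within −1 to 1 for 17 of 18 genes in macrophages on day 5 and 19 of 20 on day 14, and for 15 of 24 and 14 of 26 in Schwann cell libraries, and the intervals of the other genes reached past a 2-fold change.

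The genes with the smallest p-values in macrophages on day 5 were Scd2, Nsdhl and Insig1. Scd2 was at 24.7, 36.9 and 110 CPM in delayed and 2.65, 23.1 and 47.1 CPM in immediate repair, with overlap (log2 fold change 0.91 ± 0.41, 95% interval 0.12 to 1.71, adjusted p = 0.923). Nsdhl, a sterol demethylating enzyme, had a fold change of 0.46 ± 0.21 and Insig1 one of −0.26. On day 14 the same rule named Stard4 (−0.39 ± 0.21, 3.18, 4.72 and 5.93 against 4.07, 6.15 and 8.86 CPM), Sqle (−0.47) and Insig1 (−0.29), each with overlapping groups and an adjusted p near 1.

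In Schwann cell libraries on day 5, Elovl1, which elongates very long chain fatty acids, was at 80.4, 103 and 115 CPM in delayed and 65.7, 83.0 and 101 CPM in immediate repair (0.27 ± 0.12, adjusted p = 0.913). Hsd17b7 (−0.77 ± 0.38) and Ggps1 (−0.51 ± 0.26) followed. On day 14 the genes with the smallest p-values were Cyp51 (−0.45 ± 0.22), the lanosterol demethylase, Fdps (−0.46 ± 0.24), which makes farnesyl diphosphate, and Scd2 (0.71 ± 0.38). Scd2 was at 70.1, 148 and 287 CPM in delayed and 17.9, 100 and 140 CPM in immediate repair on that day, and these ranges overlapped. On day 14 all 7 mevalonate genes had fold changes below 0, with a median of −0.38, and the median of the 8 fatty acid genes was 0.28. The medians over all genes were −0.01 on both days, and 0 genes of either group were called. Schwann cell marker genes did not stand equal between these groups: their sums were 31.7, 123 and 398 CPM in delayed and 129, 524 and 894 CPM in immediate repair on day 5, and the order was the opposite on day 14 (313, 1285 and 1869 against 360, 632 and 1012 CPM). On day 14 all 10 tested myelin protein genes had fold changes above 0 (median 1.63, 7 with an unadjusted p under 0.05, 0 called), and on day 5 all 11 macrophage genes did (median 1.38, 3 with an unadjusted p under 0.05, 0 called). The part of these genes in the values above was not tested.

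The difference between the repair effects was tested as an interaction. Between days, 0 of 21 genes were called in macrophages (0.0223% of all genes) and 0 of 28 in Schwann cell libraries (0%), and between cell types 0 of 24 on day 5 (0%) and 0 of 26 on day 14 (0%). DESeq2 called 0 in each, and the genes with an unadjusted p under 0.05 in edgeR's test numbered 1, 4, 1 and 0. The interaction of Scd2 between days was 1.89 ± 0.82 in Schwann cell libraries and −1.10 ± 0.58 in macrophages, on the log2 scale, with adjusted p-values of 0.975 and near 1. Elovl1 (−0.42 ± 0.17) and Fdps (−0.99 ± 0.44) in Schwann cell libraries, Nsdhl (−0.74 ± 0.32) and Idi1 (−0.51 ± 0.41) in macrophages were not called. Between cell types, Schwann cell minus macrophage libraries, the genes with the smallest p-values on day 5 were Scd1, Scd2 (−1.95 ± 0.99, adjusted p = 0.89) and Insig1 (0.38 ± 0.23), and on day 14 Cyp51 (−0.67 ± 0.32), Scd1 (1.50 ± 0.76) and Dhcr7 (−1.41 ± 0.77), none of them called. The day 5 value of Scd1 had an unadjusted p of 0.0038 (adjusted p = 0.762), and its fitted size is not given because most macrophage libraries of that day had a count of 0.

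**Figure D3:**
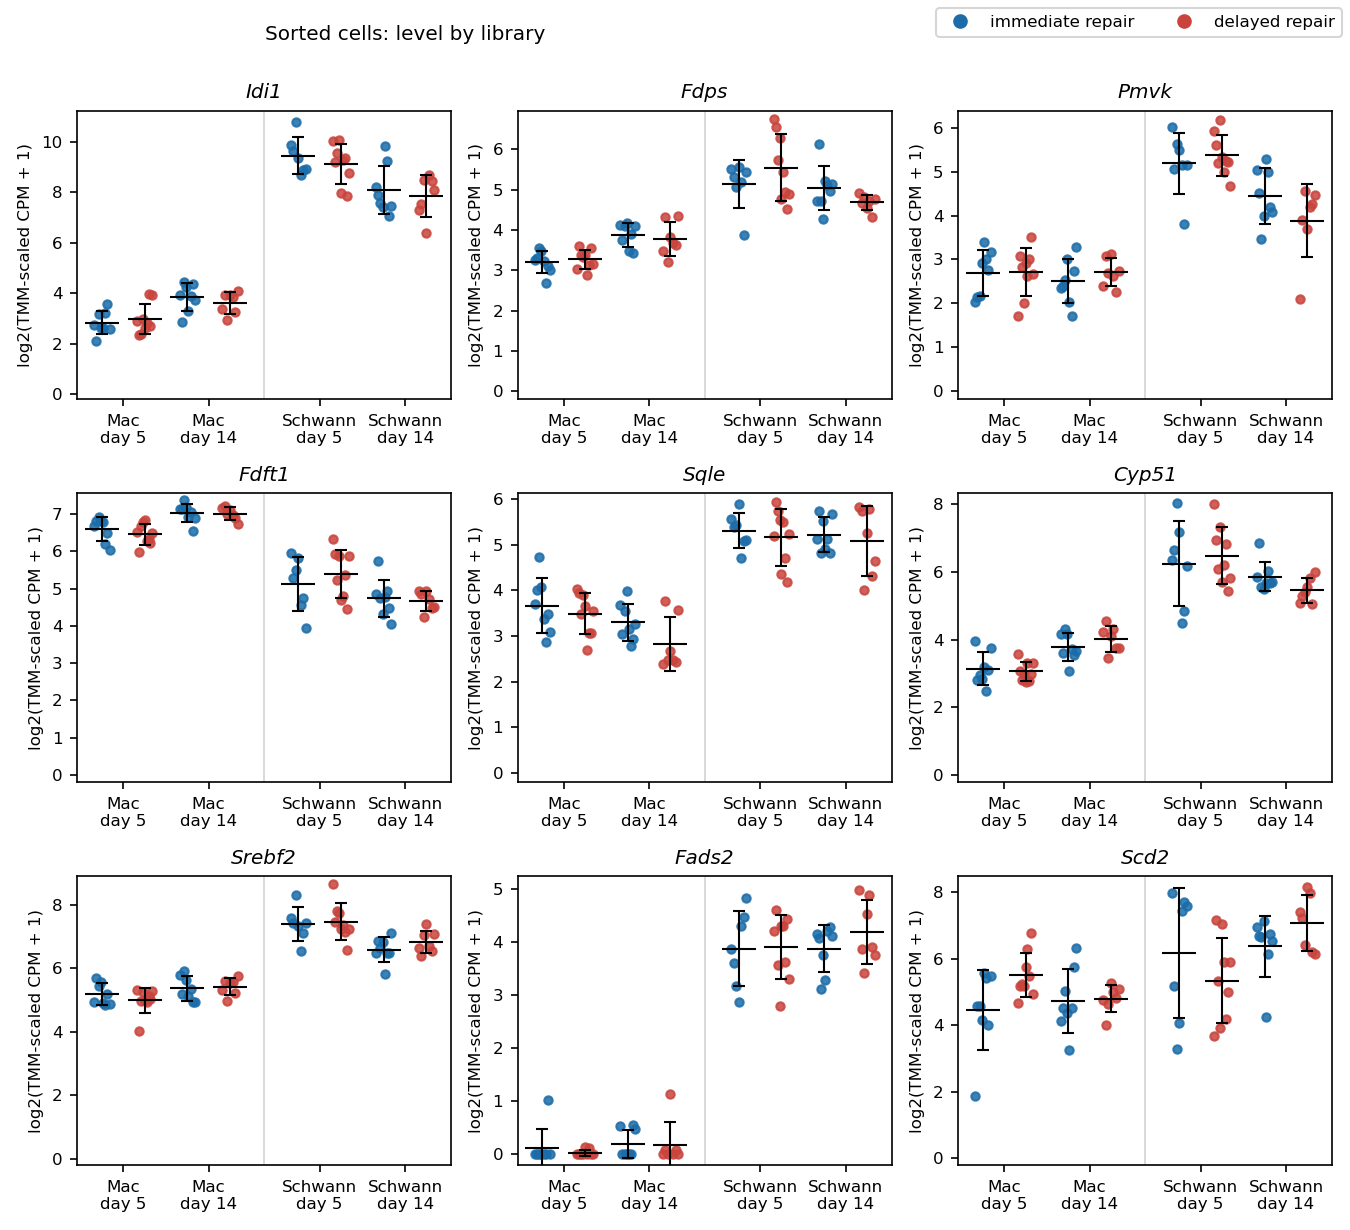
Level of 9 genes in each sorted library (y axis, log2 of TMM-scaled CPM + 1) by cell type and day (x axis), with 1 point a library coloured by repair group, a line at the mean and bars of ± SD. Within each cell type and day the repair groups overlap for these genes, Idi1 stands higher in every Schwann cell library than in any macrophage library, and Fdft1 on day 14 stands lower.

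The sorted cell types differed in most of the genes. On day 5, 19 of 24 tested genes were called between Schwann cell and macrophage libraries of the same animals (16 animals), 14 higher and 5 lower in Schwann cell libraries, which is 79.2% of the genes against 64.5% of all genes. On day 14 (15 animals), 19 of 26 were called, 15 higher and 4 lower, or 73.1% against 63.3%. On day 5 Fads2, Scd1 and Hsd17b7 reached at most 1.03, 1.54 and 4.54 CPM in macrophage libraries. On day 14 Fads2, Scd1, Hsd17b7 and Elovl6 reached at most 1.20, 2.66, 4.24 and 3.11 CPM there. These genes passed the filter of 5 CPM through the Schwann cell libraries alone. Their higher calls, counted above, follow in part from that filter. The groups did not overlap for 10 of 24 genes on day 5 and 7 of 26 on day 14, against 15.2% and 16.3% of all genes. Among the 10 were Fads2, Scd1 and Hsd17b7, and among the 7 were Fads2 and Scd1, for which the filter bears on this count too. The dendritic cell genes described above were part of what the Schwann cell gate collected, and their part in these differences was not tested. The median log2 fold change was 1.39 on day 5 and 0.89 on day 14 over the set, and −0.04 and 0.04 over all genes.

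The mevalonate genes were higher in Schwann cell libraries in 5 of 6 on day 5 and in 5 of 7 on day 14. Idi1 (chr13:8885501-8892451), isopentenyl diphosphate isomerase, differed most. It was at 228, 633 and 1779 CPM in Schwann cell and 3.34, 5.67 and 14.6 CPM in macrophage libraries on day 5, a log2 fold change of 6.61 ± 0.28 or 97.9-fold (adjusted p = 1.78e-12). On day 14 it was at 81.8, 236 and 906 CPM against 6.21, 13.9 and 20.8 CPM, or 20.4-fold (4.35 ± 0.32, adjusted p = 1.43e-09). Every Schwann cell library lay above every macrophage library on both days. Per kilobase, Idi1 was the highest of the 29 genes in all 4 Schwann cell groups, with means of 255 ± 154 and 202 ± 96.5 CPM per kb on day 5 (immediate and delayed, SD) and 110 ± 88.4 and 83.6 ± 39.1 on day 14, and Elovl1 was the next. The medians of dendritic cell sums and of Idi1 were both lower on day 14, so their values are given within a day. On day 5 the 3 libraries with the lowest dendritic cell sums (24193, 26202 and 26828 CPM) had 435, 935 and 650 CPM of Idi1, and the 3 with the highest (47756, 49705 and 50612 CPM) had 1779, 1036 and 793 CPM. On day 14 the 3 lowest (16696, 17804 and 20052 CPM) had 183, 158 and 134 CPM, and the 3 highest (40302, 43839 and 44552 CPM) had 188, 353 and 906 CPM. Libraries that stood apart were among these. Those at 24193 and 26828 CPM on day 5 held macrophage genes, and those at 40302 and 44552 CPM on day 14 held neutrophil genes. Which cells of the gate held the Idi1 transcripts was not tested. In macrophages Elovl1 was the highest, with group means of 73.3 to 77.9 CPM per kb, and Acly or Fdft1 followed. Pmvk, phosphomevalonate kinase, was higher by 2.83 ± 0.27 on day 5 and 1.78 ± 0.29 on day 14 on the log2 scale, Fdps by 2.22 ± 0.20 and 1.11 ± 0.17, and Hmgcs1, the HMG-CoA synthase, by 1.46 ± 0.16 and 0.78 ± 0.16. Mvd, the decarboxylase before Idi1, was higher by 1.32 ± 0.27 on day 5 and was not called on day 14 (−0.08 ± 0.26).

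The squalene and ring steps went both ways. Fdft1 (chr14:63145150-63179578), squalene synthase, was lower in Schwann cell libraries. Its level was 14.4, 39.0 and 79.0 CPM against 62.5, 96.3 and 120 CPM in macrophages on day 5 (−1.28 ± 0.17, adjusted p = 2.29e-06), with overlap. On day 14 it was 15.5, 25.6 and 52.8 CPM against 92.5, 131 and 166 CPM, a 5.08-fold lower level with no overlap (−2.35 ± 0.11, adjusted p = 4.47e-12). The next 2 enzymes in order of the pathway with a call were higher instead. Sqle was at 17.2, 38.8 and 60.4 CPM against 5.53, 11.2 and 25.6 CPM on day 5 (1.71 ± 0.16) and differed by 2.24 ± 0.20 on day 14. Cyp51 (chr5:4081145-4104746) was at 21.2, 76.2 and 259 CPM against 5.70, 7.17 and 14.6 CPM on day 5 (3.40 ± 0.28, adjusted p = 6.96e-09) and at 32.1, 50.1 and 115 CPM against 7.37, 12.5 and 22.6 CPM on day 14 (1.86 ± 0.18), without overlap on either day. Hsd17b7 was at 5.41, 17.0 and 60.8 CPM against 0, 0.828 and 4.54 CPM on day 5, a level so low in macrophages that the fitted fold depends on the prior count, and none is given. Ebp, a sterol isomerase, was lower by a small amount on both days (−0.66 ± 0.09 and −0.51 ± 0.13). Nsdhl and Dhcr7 were not called on either day.

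Of the regulators, Srebf2 (chr15:82147181-82205379), which encodes the SREBP that favours sterol genes, was higher in Schwann cell libraries. It was at 91.6, 167 and 405 CPM against 15.2, 32.6 and 50.8 CPM on day 5, without overlap (2.38 ± 0.15, adjusted p = 2.15e-10), and at 56.0, 98.5 and 167 CPM against 29.3, 39.6 and 59.6 CPM on day 14 (1.35 ± 0.13). Insig1 was lower on both days (−0.86 ± 0.12 and −0.85 ± 0.15). Srebf1 was called higher on day 5 (0.25 ± 0.08) and was not called on day 14 (95% interval −0.40 to 0.39). Stard4 was higher by 2.65 ± 0.31 on day 5 and 1.0 ± 0.19 on day 14.

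Among fatty acid genes, the desaturase genes differed from each other. Fads2 was at 6.0, 15.6 and 27.7 CPM in Schwann cell libraries on day 5, whereas 7 of 9 delayed and 7 of 8 immediate macrophage libraries had a count of 0. Scd1 was at 1.84, 25.0 and 226 CPM on day 5 against a count of 0 in 6 of 9 and 7 of 8 macrophage libraries, and by day 14 the count was 0 in 1 of 7 and 0 of 8. Both were called higher on both days, and no fold is given against these levels. Fads1 was not called on either day (−0.51 ± 0.32, 95% interval −1.13 to 0.11, and then 0.01 ± 0.27, interval −0.53 to 0.54). Scd2 was not called on day 5 (0.56 ± 0.53, 95% interval −0.47 to 1.60) and was higher on day 14, at 17.9, 101 and 287 CPM against 8.57, 26.4 and 79.7 CPM (2.01 ± 0.24, adjusted p = 6.35e-07). Fasn was higher on both days (1.62 ± 0.67 and 2.84 ± 0.30) and Elovl6 was tested and higher on day 14 only. Elovl1 was lower on both days (−0.68 ± 0.09 and −0.80 ± 0.08), and Acly was lower on day 5 (−0.28 ± 0.10) and not called on day 14. Of the other pathway lists, genes of sterol efflux and storage were mostly lower in Schwann cell libraries (7 lower and 1 higher of 10 on day 5, 8 and 1 of 10 on day 14), and other fatty acid synthesis genes mostly higher (6 higher and 1 lower of 10, then 8 and 1 of 10). Of 4 tested myelin lipid enzymes all 4 were lower on day 5, and of 6 on day 14 there were 2 higher and 4 lower. Other sterol synthesis genes were 3 higher and 1 lower of 4 and then 1 higher, and fatty acid oxidation genes 2 higher and 2 lower of 7 and then 3 higher. These counts stand beside the 64.5% and 63.3% of all genes called on the 2 days.

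From day 5 to day 14, sterol synthesis genes went both ways in macrophages, and those called were higher. After immediate repair 7 of 11 tested had fold changes above 0 and 4 below (median 0.08, lowest −0.41). After delayed repair 7 of 12 were above 0 and 5 below (median 0.13, lowest −0.66). Sqle, not called, had group means of 3.89 CPM per kb on day 5 and 2.42 on day 14 after delayed repair. After immediate repair, 5 of 19 tested genes were called, 4 higher and 1 lower on day 14, or 26.3% against 11.3% of all genes tested. After delayed repair, 2 of 19 were called, both higher, or 10.5% against 6.41%. With 1 library left out the counts ran from 3 to 6 after immediate and from 2 to 4 after delayed repair. The count after delayed repair was also higher with DESeq2 and with limma-voom. The macrophage libraries of the 2 repair groups come from different animals.

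After immediate repair Fdps (chr3:89093588-89101959) rose from 5.40, 8.55 and 10.7 CPM to 9.75, 15 and 17.0 CPM (log2 fold change 0.78 ± 0.17, adjusted p = 0.00471), and Idi1 from 3.34, 5.47 and 10.9 CPM to 6.21, 14.1 and 20.8 CPM (1.18 ± 0.27, adjusted p = 0.00765). Stard4 rose from 2.06, 2.77 and 5.22 CPM to 4.07, 6.15 and 8.86 CPM (1.05 ± 0.23, adjusted p = 0.0053). Fdft1, the highest sterol synthesis gene of macrophage libraries per kilobase, rose from 64.7, 105 and 120 CPM to 92.5, 135 and 166 CPM (0.48 ± 0.13, adjusted p = 0.0204), a call that was lost with no filter on low levels (adjusted p = 0.0573). The ranges of each of these genes overlapped between days. Acly (chr11:100476353-100528000) fell from 156, 198 and 276 CPM to 125, 143 and 176 CPM (−0.40 ± 0.12, adjusted p = 0.0413), a call that was lost with scaling by library size alone (adjusted p = 0.148), with no filter and without any 1 of 9 libraries.

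After delayed repair Cyp51 rose from 5.70, 6.95 and 10.8 CPM to 10, 16 and 22.6 CPM (1.08 ± 0.18, adjusted p = 0.00143) and Fdft1 from 62.5, 88.4 and 113 CPM to 105, 127 and 148 CPM (0.56 ± 0.12, adjusted p = 0.00655). Fdps was close to the threshold (0.61 ± 0.19, adjusted p = 0.0565), and Idi1 had a fold change of 0.66 ± 0.29. Cyp51 after immediate repair had a fold change of 0.71 ± 0.25 (adjusted p = 0.0704). The interaction of repair and day given above called none of these genes. Some sterol efflux genes rose in the same libraries: Abca1 rose by 0.41 ± 0.12 after immediate and by 0.54 ± 0.14 after delayed repair, Abcg1, a further exporter, by 0.65 after immediate, and Cyp27a1 by 1.31 ± 0.35 and Lipa, the lysosomal lipase, by 0.62 after delayed repair. These were 2 and 3 of 9 tested genes of that list, beside the 11.3% and 6.41% of all genes called in either direction. Dendritic cell genes also differed by day in macrophage libraries, with sums of 1465, 3416 and 4561 CPM on day 5 and 9311, 12070 and 17157 CPM on day 14 after immediate repair, and of 2406, 3351 and 5722 and then 8035, 10700 and 20882 CPM after delayed repair. Of 6 tested genes of that list 4 were called higher in each repair group, among them the antigen presentation gene Cd74. Macrophage genes were called as well, 1 higher and 3 lower of 11 after immediate and 1 lower after delayed repair. In both repair groups the 1 tested T cell gene was called higher (3.32 and 2.78 on the log2 scale), and the 1 tested neutrophil gene (−1.68 and −1.77) and 1 of 2 endothelial genes were called lower. The part of these cell types in the sterol changes was not tested.

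In Schwann cell libraries 3 sterol genes fell. After delayed repair 3 of 25 genes were called, all lower on day 14, or 12% against 8.09% of all genes. After immediate repair 0 of 26 were called by edgeR's test (3.81% of all genes were), 5 had an unadjusted p under 0.05 and DESeq2 called 3. Pmvk (chr3:89454541-89469013) fell after delayed repair from 24.4, 36.7 and 71.3 CPM to 3.30, 17.3 and 22.6 CPM, without overlap (−1.37 ± 0.31, adjusted p = 0.0175). Of all genes, 1.37% had no overlap in this comparison. Mvd (chr8:122433601-122443422) fell from 16.2, 19.5 and 29.7 CPM to 1.75, 9.19 and 17.3 CPM (−1.27 ± 0.35, adjusted p = 0.0352), and Cyp51 from 42.2, 71.8 and 250 CPM to 32.1, 40.8 and 63.0 CPM (−1.15 ± 0.34, adjusted p = 0.0453). Both of these overlapped between days. Idi1 (−1.18 ± 0.36, adjusted p = 0.0519) and Fdps (−1.01 ± 0.32, adjusted p = 0.058) missed the threshold. The fatty acid genes Scd2 (1.52 ± 0.52, adjusted p = 0.0771), Fasn (1.21 ± 0.38, adjusted p = 0.0583) and Fads1 (1.21 ± 0.38, adjusted p = 0.0555) had fold changes of the opposite sign and were not called.

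After immediate repair the smallest p-values were those of Hsd17b7, at 10.1, 19.0 and 60.8 CPM on day 5 and 3.34, 7.93 and 17.2 CPM on day 14 (−1.44 ± 0.40, adjusted p = 0.0567), Srebf2 (−0.78 ± 0.23, adjusted p = 0.063) and Idi1, at 407, 654 and 1779 CPM and then 134, 212 and 906 CPM (−1.14 ± 0.43, adjusted p = 0.148). DESeq2 called these same 3 genes.

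The calls after delayed repair were not stable. They were lost, all 3, without the libraries high in macrophage or neutrophil genes (3 delayed Schwann cell libraries) and with the dendritic cell marker level as a covariate, both alternatives chosen after the data were seen, and the count was 1 without day 14 replicate 1, 4 or 6 or day 5 replicate 3, 9 without day 5 replicate 5 and 6 without day 5 replicate 8. Over 27 fits, each with its own setting or left-out library, Cyp51 was not past the threshold in 20, Mvd in 12 and Pmvk in 3. Schwann cell genes summed to 31.7, 123 and 398 CPM on day 5 and 313, 1285 and 1869 CPM on day 14 after delayed repair, 4 of 12 were called higher, and 7 of 10 myelin protein genes were called higher. All 11 macrophage genes had fold changes below 0 with 0 called. Fibroblast genes summed to 4.59, 437 and 1736 CPM on day 5 and 1073, 3051 and 7735 CPM on day 14 after delayed repair, and 1 of 5 tested was called higher. The part of these cell types in the day changes was not tested. Within the 4 groups of Schwann cell libraries, the library with the highest Schwann cell sum had more Scd2 than that with the lowest in 3 and less in 1 (immediate, day 14, 69.3 against 101 CPM), and it had less Idi1 in both delayed groups and more in both immediate groups. Ccr7 itself had medians of 6401 CPM on day 5 and 3879 CPM on day 14 after delayed repair (log2 fold change −0.77 ± 0.25, adjusted p = 0.0664), a difference that was not called.

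**Figure D4:**
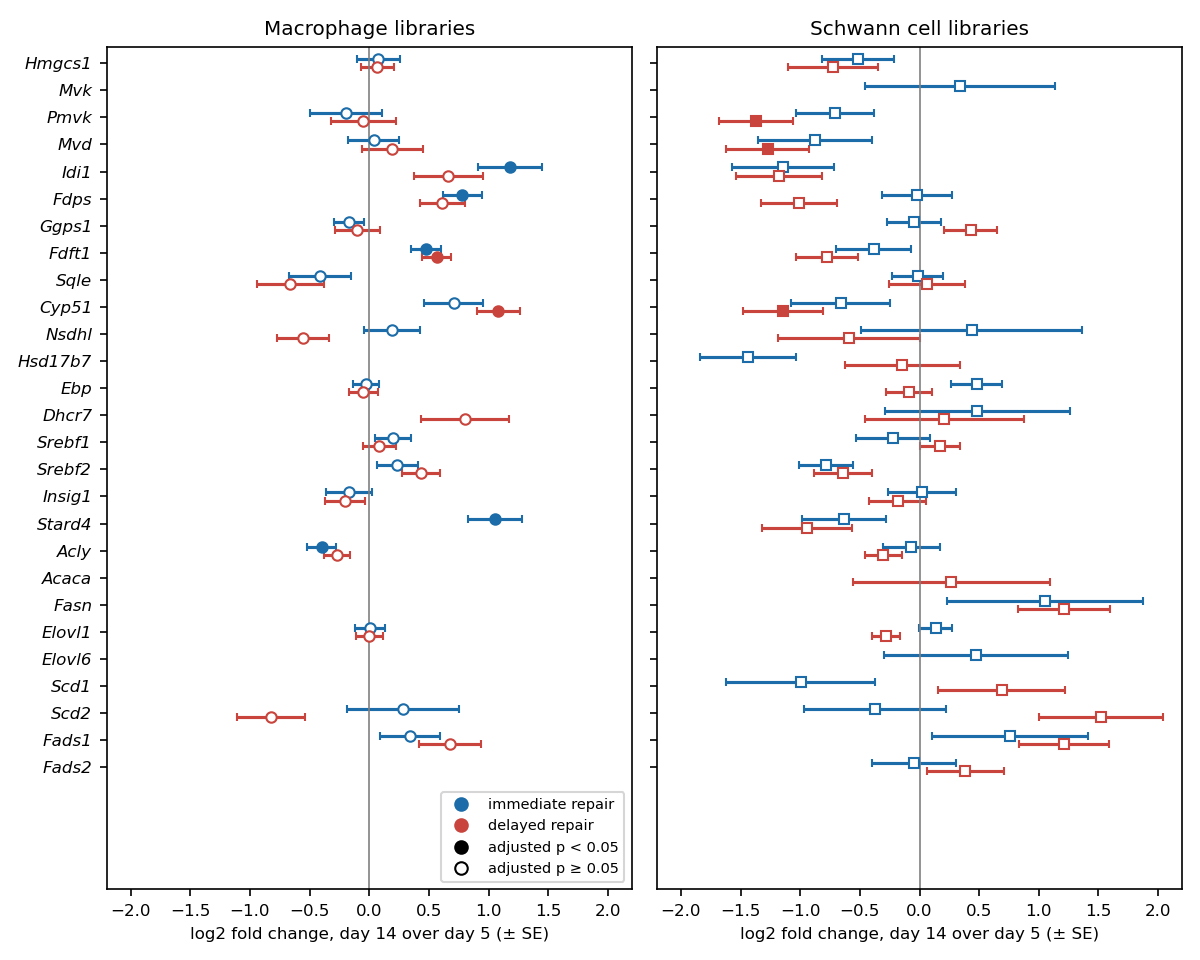
Log2 fold change from day 5 to day 14 (x axis, bars ± SE) of each gene tested in at least 1 of the comparisons (y axis) in macrophage and in Schwann cell libraries, with 1 point for each repair group and filled points for an adjusted p under 0.05. The sterol genes Idi1 and Cyp51 lie right of 0 in macrophages and left of 0 in Schwann cell libraries, where Scd2 and Fasn lie right of 0 after delayed repair. The sterol gene Sqle lies left of 0 in macrophages after delayed repair.

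The difference in the day change between the cell types was tested directly in the 31 animals with both libraries, with the animal as a block and both repair groups together. This test was added after the day comparisons had been seen, and it uses the same libraries. Of 29 genes 9 were called, all with a more negative day change in Schwann cell than in macrophage libraries, or 31% against 15.6% of all genes tested. They included 4 mevalonate genes, Idi1 (−2.27 ± 0.39, adjusted p = 1.20e-04), Mvd (−1.41 ± 0.38, adjusted p = 0.0101), Fdps (−1.12 ± 0.26, adjusted p = 0.00317) and Hmgcs1 (−0.69 ± 0.22, adjusted p = 0.0304). Fdft1 (−1.07 ± 0.20, adjusted p = 3.21e-04), Cyp51 (−1.55 ± 0.33, adjusted p = 0.00138), Srebf2 (−1.04 ± 0.20, adjusted p = 3.90e-04) and Stard4 (−1.66 ± 0.35, adjusted p = 0.00132) were the others with measurable levels in both cell types. Scd1 was called as well, but its counts of 0 in macrophages on day 5 make its fitted value depend on the prior count. The promoter windows of Idi1, Cyp51, Mvd and Hmgcs1 were shown above, and CCAAT was also found in windows of genes not called here, among them Hsd17b7, Mvk, Pmvk and Ggps1. Genes not called went both ways in both pathways. Of the sterol genes, Sqle (0.52 ± 0.25, adjusted p = 0.157), Ggps1 (0.29 ± 0.22), Nsdhl (0.28 ± 0.71), Mvk (0.20 ± 0.77) and Ebp (0.14 ± 0.16) had positive differences. Of the fatty acid genes, Fasn (1.22 ± 0.72) and Scd2 (1.44 ± 0.59) had positive and Elovl1 (−0.14 ± 0.12) and Fads2 (−1.42 ± 0.98, near 0 in macrophages) negative differences. The call of Hmgcs1 was lost with scaling by library size alone (adjusted p = 0.0965). In macrophage libraries 4 of 6 tested dendritic cell genes were called higher by day in each repair group, as given above. In Schwann cell libraries 1 of the 12 was called higher and 1 lower after delayed repair, and 0 higher and 1 lower after immediate repair. Schwann cell genes in the gate had a higher median sum on day 14 after delayed repair, as given above. The part of these genes in the 9 calls was not tested.

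**Figure D5:**
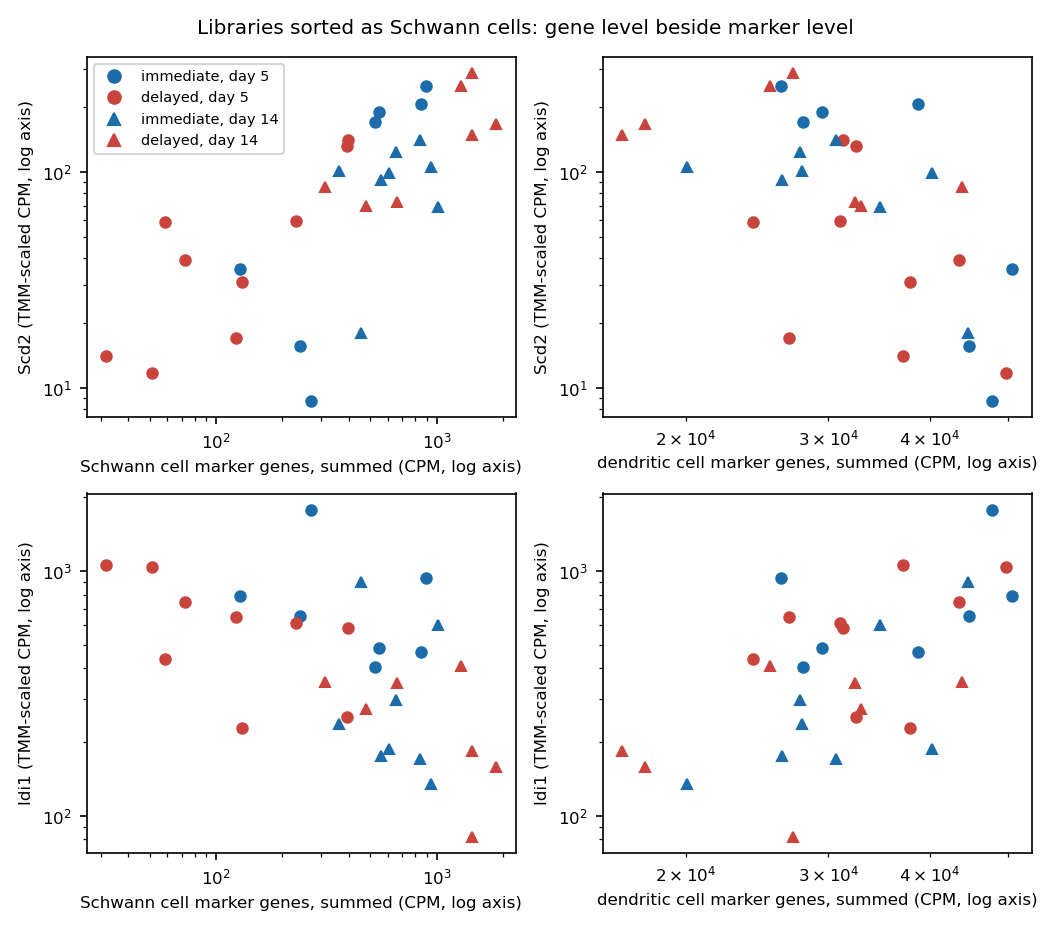
Levels of Scd2 and Idi1 (y axes, TMM-scaled CPM, log axis) beside the summed level of Schwann cell or dendritic cell marker genes (x axes, CPM, log axis) in the 31 libraries sorted as Schwann cells, with 1 point a library by repair group and day. The Schwann cell sums span 31.7 to 1869 CPM while the dendritic cell sums run from 16696 to 50612 CPM. Day 14 libraries lie farther right in Schwann cell sum after delayed repair, so marker sum and day cannot be read apart across all points.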

How the data were processed

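The macrophage and Schwann cell libraries were made from sorted cells with the SMART-Seq v4 kit, which keeps no strand, and the stump libraries with a directional kit after depletion of ribosomal RNA. The authors deposited estimated counts per gene and library, made with tools that the submitters' processing notes list as cutadapt 1.8, TopHat2 2.1.1, Cufflinks 2.2.1 and Cuffnorm. Which tool wrote the counts is not given in the sources used here. Between 0.951% and 1.18% of values per table were not whole, none of them in the 29 genes, and all were rounded. Without strand, reads of overlapping genes cannot be told apart in the sorted libraries.

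The tests covered every gene that reached 5 CPM in 6 or more of the compared libraries and used edgeR 4.0.16 (R 4.3.3), by its quasi-likelihood method after TMM scaling with Benjamini-Hochberg adjustment and a threshold of 0.05. Cell types were compared with the animal as a block. SE was taken from the log2 fold change and its F statistic, and the 95% interval follows from SE. Levels of sorted cells were scaled together and those of stumps apart. Length per gene is the union of exons in the GENCODE vM21 annotation of GRCm38, which also gives the gene coordinates. DESeq2 1.42.0, limma-voom 3.58.1, other scalings and filters, covariates and each library left out in turn were the alternatives. The fits were also run on simulated counts, as a check of the code and not of the results. No pair of libraries was identical (3081 pairs), and 0 columns were left unmatched. Depth limits the precision of genes of a few CPM.

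Groups shared replicate numbers. Between repair groups, same-numbered macrophage libraries deviated together in 7 of 8 pairs on day 5 (median correlation 0.26, over 0.1 in these pairs). On day 14 they did so in 6 of 7 pairs (median 0.25). In no comparison did every pair, and the numbers were not taken to pair the animals. The main macrophage tests therefore hold no term for what same-numbered libraries share. P-values of the repair, day and sex tests measure the spread between animals, 1 library each. Those between cell types, and of interactions with cell type, rest on how the difference between the 2 libraries of an animal varied over animals. The 29 genes, the pathway lists and the marker lists were chosen with earlier results of these data known. Values are given in full for genes called in a comparison, at most the 12 with the smallest p, and for the 3 with the smallest p where none was called. The other genes are given by counts and ranges. Up to 3 called genes of each pathway list are named. One pathway list is not reported here.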

Additional observations from a re-analysis of the deposited data

Results flagged for a closer look

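Of 127 pairs of a gene and a group of libraries examined, 13 had 1 library apart from the rest of its group by Dixon's criterion, which chance gives in about 5% of groups. In Schwann cell libraries, Cyp51 was at 115 CPM in immediate day 14 replicate 2 (others 44.3 to 63.9), Fasn at 5.29 CPM (others 20.5 to 48.4) and Scd2 at 17.9 CPM (others 69.3 to 140) in immediate day 14 replicate 5, Fdps at 13.6 CPM (others 32.4 to 46.6) and Pmvk at 13.0 CPM (others 32.6 to 63.8) in immediate day 5 replicate 7, and Pmvk at 3.30 CPM in delayed day 14 replicate 1 (others 12 to 22.6). Immediate day 14 replicate 5 is also 1 of the 5 libraries with macrophage or neutrophil genes (neutrophil sum 2025 CPM).

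In macrophage libraries, Srebf2 was at 15.2 CPM (others 29.8 to 38.7) and Hsd17b7 at 2.5 CPM (others up to 0.828) in delayed day 5 replicate 2, and Scd2 was at 2.65 CPM in immediate day 5 replicate 1 (others 15 to 47.1). Genes near 0 gave the others: Fads2 at 1.20 CPM in delayed day 14 replicate 4 (others up to 0.0613) and at 1.03 CPM in immediate day 5 replicate 7 (others 0), and Scd1 at 0 CPM in delayed day 14 replicate 4 (others 0.812 to 1.80) and at 0.0605 CPM in immediate day 5 replicate 3 (others 0).

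The change from day 5 to day 14 differed between the sorted cell types for 9 genes, by the interaction test described above. The differences on the log2 scale, Schwann cell minus macrophage libraries, were −2.27 for Idi1, −1.66 for Stard4, −1.55 for Cyp51, −1.41 for Mvd, −1.12 for Fdps, −1.07 for Fdft1, −1.04 for Srebf2 and −0.69 for Hmgcs1. The value of −3.96 for Scd1 depends on the prior count.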

How the results depend on the processing

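Of the counts of called genes, 116 values under alternatives stayed within 1.5 times the count reported and 13 did not. In the stump the count of 6 was 11 with limma-voom and 6 to 11 with 1 library left out (11 without delayed replicate 1). In macrophages after delayed repair the day count of 2 was 4 with DESeq2, 5 with limma-voom and 2 to 4 with 1 library left out (4 without day 14 replicate 1). After immediate repair the count of 5 was 3 to 6 with 1 library left out (3 without day 14 replicate 1, 7 or 8). In Schwann cell libraries after immediate repair the day count of 0 was 3 with DESeq2, 1 with limma-voom, 2 with all 4 groups in one fit and 0 to 2 with 1 library left out (2 without day 5 replicate 5, 1 without day 5 replicate 8 or day 14 replicate 2 or 5). After delayed repair the count of 3 was 9 with DESeq2, 5 with sex as a covariate, 1 with no filter, 0 without libraries high in macrophage or neutrophil genes, 0 with dendritic marker level as a covariate and 1 to 9 with 1 library left out. The stump comparison of sexes gave 1 with limma-voom. The cell type counts of 19 ranged from 17 to 19 with 1 animal left out. With the replicate number as a block, the stump count was 4 (Hsd17b7 and Sqle were lost) and the Schwann cell day count after delayed repair was 1 (Fasn, not among the 3). By replicate number, 1 of 7 libraries in the stump, 0 of 7 in Schwann cell libraries by day after delayed repair and 5 of 7 in macrophages on day 14 correlated best with their own number, and in no comparison did all. The sex comparison could not be fitted with the block. Without the animal as a block (no replicate block), the cell type counts were 20 and 19. For named genes, 538 values under alternatives stayed on their side of the threshold, 24 were no longer past it and 7 were newly past it, and no direction turned in these. The causes were not tested.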

Other observations

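The order of the 29 genes by level per kilobase is given as a description, with no test. In macrophage libraries Ebp and Insig1 followed Elovl1, Acly and Fdft1 in all 4 groups, with group means of 20.8 to 22.0 CPM per kb for Ebp and 14.5 to 20.4 CPM per kb for Insig1. In Schwann cell libraries Hmgcs1 was at 39.7 and 41.1 CPM per kb on day 5 (immediate and delayed repair) and at 26.4 and 23.4 CPM per kb on day 14, and Scd2 followed Acly after delayed repair on day 14 (28.3 ± 16, SD, n = 7).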
